A study of Mus musculus with 4 samples.

Results

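Among chromatin sites that were accessible in WT macrophages and not called in H3.3cKO macrophages, 5 ranked highest, and the 5 genes described here are those with the nearest protein-coding transcription start site (TSS): Ldlrad3, Tmem72, Dram1, Pnrc1 and Srsf5. They are 5 of 55450 annotated genes, and they were chosen by the measured peak ranks of the WT against cKO comparison itself. The values of that comparison are therefore given as a description, without a test. ATAC-seq, in which the Tn5 transposase cuts open DNA, was performed with bone marrow-derived macrophages (BMDMs), grown from mouse bone marrow in medium with L929-conditioned supernatant and used at day 7 of a culture of 6 to 8 days, with 2 biological replicates per genotype. WT cells were homozygous for floxed H3f3a (exon 2) and H3f3b (exons 1 to 4) alleles, the genes of H3.3, without Cre. H3.3cKO (cKO) cells carried the same alleles with Cre in both copies of the LysM (Lyz2) locus, which is active in myeloid cells, so that deletion depends on how far this locus was active in the culture. Both genotypes had a C57BL/6 background, mice of 8 to 10 weeks and of both sexes were used in the study, and the number and sex of the animals behind each library were not given in the sources used here, so the spread between replicates may be partly technical.

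H3.3 is the histone H3 variant that is placed into nucleosomes outside of DNA replication, mainly at transcribed genes, promoters and enhancers. In macrophages, most cell-type-specific accessible sites lie in introns and between genes, where lineage factors such as PU.1 and C/EBP proteins bind. The 5 genes share no pathway. Ldlrad3 encodes a membrane protein with low density lipoprotein receptor class A domains, and Tmem72 encodes a transmembrane protein whose function is little known. Dram1 is a p53 target whose lysosomal membrane protein promotes autophagy. Pnrc1 encodes a nuclear receptor coactivator, and Srsf5 encodes a serine and arginine-rich splicing factor.

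Each library had its own list of peaks, and peaks of different lists sharing 1 bp or more were joined into union regions. A lost region had a peak in WT replicates 1 and 2 and none in cKO, a gained region the reverse, and a shared region a peak in all 4 libraries. Peak strength is given as the percentile of the peak's area among all peaks of the same list, so that 100 is the strongest peak of a library. It is a rank, and it does not measure how much accessibility changed.

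The 5 regions lay between 10.7 and 129.1 kb from the TSS that names them, and none overlapped a promoter of a protein-coding gene. The central 201 bp of each, around the summit of the WT replicate 2 peak, are printed because these are the highest-ranked WT sites without a cKO peak. All are plus-strand RefSeq sequences of GRCm38/mm10, and capitals mark matches to any of 9 consensus motifs on either strand.

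Ldlrad3 region, chr2:102057259-102057459: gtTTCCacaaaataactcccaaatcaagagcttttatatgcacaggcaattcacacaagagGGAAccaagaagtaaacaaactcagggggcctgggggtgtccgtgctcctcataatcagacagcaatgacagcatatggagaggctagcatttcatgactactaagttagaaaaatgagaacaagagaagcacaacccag
Tmem72 region, chr6:116735432-116735632: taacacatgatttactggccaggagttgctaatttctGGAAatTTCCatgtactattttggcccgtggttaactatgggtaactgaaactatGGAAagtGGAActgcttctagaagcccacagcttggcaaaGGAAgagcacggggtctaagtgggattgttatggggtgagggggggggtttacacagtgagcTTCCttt
Dram1 region, chr10:88346043-88346243: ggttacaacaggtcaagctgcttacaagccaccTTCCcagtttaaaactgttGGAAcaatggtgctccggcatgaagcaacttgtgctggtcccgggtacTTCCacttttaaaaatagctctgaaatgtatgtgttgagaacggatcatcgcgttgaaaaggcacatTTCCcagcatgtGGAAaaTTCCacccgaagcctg
Pnrc1 region, chr4:33265316-33265516: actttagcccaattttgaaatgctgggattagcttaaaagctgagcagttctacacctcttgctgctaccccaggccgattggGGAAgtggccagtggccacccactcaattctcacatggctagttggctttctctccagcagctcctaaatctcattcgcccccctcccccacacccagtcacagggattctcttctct
Region nearest to Srsf5, chr12:80885442-80885642: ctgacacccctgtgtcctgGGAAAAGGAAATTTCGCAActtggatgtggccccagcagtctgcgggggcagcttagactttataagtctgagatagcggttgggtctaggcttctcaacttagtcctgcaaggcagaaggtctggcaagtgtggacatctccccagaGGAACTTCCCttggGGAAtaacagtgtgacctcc

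In the Ldlrad3, Tmem72, Dram1 and Pnrc1 sequences all capitals are the ETS core GGAA, with 2, 6, 6 and 1 matches. That core is short, and 94.9% of all union regions held it in a window of the same length. The longer letters searched were AP-1 (TGANTCA), PU.1 (GAGGAAGT), C/EBP (TTGCNNAA), RUNX (AACCACA) and the GC box (GGGCGG), with the ISRE, NF-kB and CTCF consensus motifs by name. The region nearest to Srsf5 was the only one of the 5 with a match to any of these. It held 1 ISRE match and 1 C/EBP match, which start 80 and 70 bp before the summit. It also held 1 NF-kB match that starts 67 bp after the summit. Over all 71243 union regions, 3.90% held the ISRE motif, 12.3% the C/EBP motif and 4.85% the NF-kB motif. In lost regions these shares were higher, at 4.42%, 15.1% and 7.01%. AP-1 letters, found in 16.7% of all regions and 9.99% of lost regions, were in none of the 5. Neither were the PU.1 letters (11% of all regions), the RUNX letters (8.38%), the GC box (14.9%) or the CTCF motif (4.12%). In lost regions the PU.1, RUNX, GC box and CTCF shares were 12.8%, 7.38%, 5.69% and 1.70%. The GC content of the windows was 43.8% for Ldlrad3, 46.3% for Tmem72, 46.8% for Dram1, 52.2% for Pnrc1 and 53.2% for Srsf5, around the median of 47.8% for all lost regions. The windows held between 1 and 6 CpG dinucleotides, against a median of 2 in lost regions and 3 in shared regions. A repeat, marked in lower case in the reference, covered 35.8% of the Pnrc1 window and no base of the other 4.

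The lists held 55742 and 64939 peaks in WT and 51955 and 60884 in cKO (replicates 1 and 2). Read depths are unknown, and each list ended just above an area of 200, the limit of the peak caller, so a weaker site is missing from a list. Peaks at the targeted exons differed between the 2 genes. At exon 2 of H3f3a, a weak region was called at percentiles 5.02 and 19.1 in WT and not in cKO, whereas a region over exons 1 to 3 of H3f3b was called in all 4 libraries, at 94.2 and 95.5 in WT versus 87.0 and 81.4 in cKO. The peaks therefore do not show that H3f3b was deleted in all cells of the libraries labelled cKO. The study described deletion of H3f3b as ranging from partial to complete between cKO samples. It also reported loss of H3.3 mRNA and protein in cKO BMDMs, by qRT-PCR, RNA-seq and western blot. Throughout, cKO stands for the libraries so labelled. Promoters of 8 of 9 macrophage marker genes were called in all 4 libraries, with no peak at that of Spi1. In 3 of these 8 both cKO percentiles were below both WT percentiles, in 1 above, and in 4 the values overlapped. The 3 were Lyz2, the locus that carries Cre in cKO, at 96.1 and 99.0 in WT versus 57.4 and 59.4 in cKO, the growth factor receptor gene Csf1r at 73.7 and 85.3 versus 56.4 and 61.4, and the phagocytic receptor gene Mertk at 89.3 and 92.8 versus 73.9 and 79.1. Cd68 was the 1 above, at 91.2 and 89.7 versus 92.7 and 92.7. Over all 44820 shared regions, 35.1% lay below in this way and 22.2% above. The 3 of 8 marker promoters below were thus near the share of all shared regions, and 8 promoters are few. Of 13 marker genes of neutrophils, dendritic cells, lymphocytes, erythroid cells and fibroblasts, 3 had a promoter peak in all 4 libraries and 8 had none in any. Those 3 were S100a8, a neutrophil gene, at 76.5 and 78.3 in WT versus 50.3 and 64.0 in cKO, and the dendritic cell genes Zbtb46 and Flt3, the first at 69.0 and 74.1 in WT versus 39.6 and 56.5 in cKO and the second at 24.2 and 37.3 in WT versus 47.0 and 53.9 in cKO. Ly6g, a neutrophil gene, had a promoter peak in cKO alone, at 30.3 and 17.8, and Camp, another one, was called in WT at 29.1 and 29.5 and in cKO replicate 2 alone at 10.2. The part of other cell types in the lost regions was not tested.

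The strongest lost region lay at Ldlrad3, at percentiles 79.6 and 81.8 in WT replicates 1 and 2. The region at Tmem72 stood at 74.5 and 79.2. Dram1 followed at 71.4 and 78.0. All 3 regions ranked slightly higher in WT replicate 2.

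At Pnrc1 the values were 73.2 and 72.9. The region nearest to Srsf5 had the lowest of the 5, at 70.0 and 70.6. In none of the 5 was there a peak in either cKO library, so no cKO value can be given, only that any signal fell short of the caller's limit. In terms of area, the WT peaks were 5.51 to 8.37 times that limit. Area is summed over the width of a peak, so this multiple does not measure how much accessibility changed.

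The choice of 5 genes cut a continuous series. The next lost regions, which were not chosen, had mean WT percentiles of 69.3 (nearest coding TSS Itsn1), 68.9 (Arhgap9), 68.6 (Csgalnact2), 67.7 (Aldh3b1) and 67.6 (Mrps6), against 70.3 for the region nearest to Srsf5. The median of all 5164 lost regions was 19.8, and 189 of them (3.66%) reached 50. The range spanned by the 5 regions, from 70.3 to 80.7, held 6164 regions that were called in both WT libraries. Of these, 6134 were called in all 4 libraries, 25 in 1 cKO library and 5 in none, the last being the chosen regions that set the range. The shared ones among them had a median mean cKO percentile of 73.0, with 5% of them below 50.5. Regions of this WT rank were thus nearly always called in cKO cells. The order depended on the measure, since by the p-value at the summit only the Tmem72 region stayed among the 5 highest, at rank 1, while those at Pnrc1, Dram1, Srsf5 and Ldlrad3 ranked 6, 9, 10 and 18. In the opposite direction, 57 gained regions had a mean cKO percentile at or above 70.3.

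**Figure D1:**
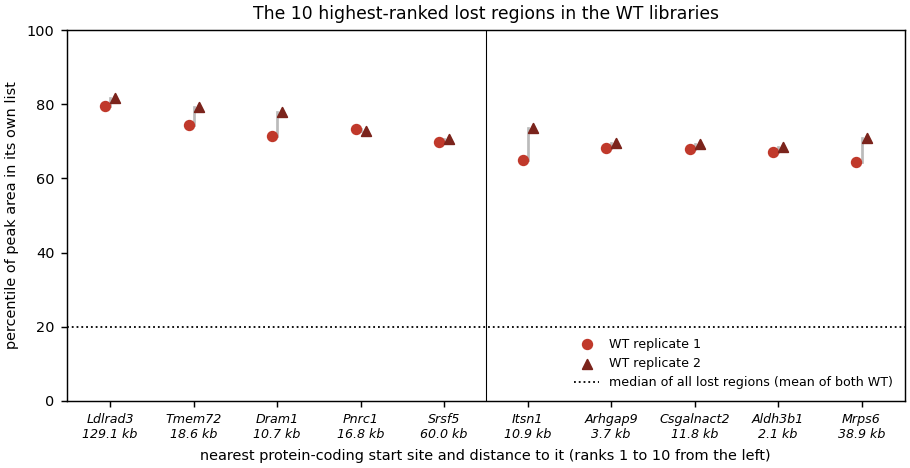
Percentile of the peak area (vertical axis, 0 to 100, within each library's own list) of the 10 highest-ranked lost regions in WT replicate 1 (circles) and WT replicate 2 (triangles), ordered by rank along the horizontal axis and labelled with the nearest protein-coding TSS and its distance. The dotted line is the median of all lost regions at 19.8, and the vertical line after the first 5 regions marks the choice of genes, across which the values pass from 70.3 to 69.3 on average.

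The 2 WT libraries placed these peaks almost identically. Their summits differed by 10 bp at Ldlrad3, 1 bp at Tmem72, 2 bp at Dram1, 8 bp at Pnrc1 and 2 bp at the region nearest to Srsf5. The regions were 767, 513, 935, 757 and 715 bp wide in this order, wider than the median lost region (321 bp). Of them, 4 were also wider than the median shared region (590 bp). The regions were chosen by peak area, which is summed over the width of a peak, so their large width follows in part from the choice. None was the edge of a peak that was present in cKO. The nearest cKO peak was 3510 bp away at Ldlrad3, 1335 bp at Tmem72, 3088 bp at Dram1, 3205 bp at Pnrc1 and 7151 bp at the region nearest to Srsf5. Over all lost regions the median gap to a cKO peak was 5002 bp, and 15.3% lay within 1 kb of one.

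The windows, which are the gene bodies with 20 kb added at either end, held 72 regions of the 4 lists. Of these, 44 (61.1%) were shared, 12 (16.7%) lost, 2 (2.78%) gained and 14 had other patterns. Over all union regions, 62.9% were shared, 7.25% lost and 3.72% gained. The lost shares depended on the libraries: without WT replicate 1, the lost count over all regions went from 5164 to 10212 (14.4%) and that of the windows from 12 to 17 (23.3%), and without cKO replicate 2 they were 9078 (13.4%) and 16 (22.5%). The windows were chosen through their lost regions, and 8 of the 12 remained besides the top region of each gene. The lost regions of the windows were 250 to 935 bp wide. By their centres, 8 lay in introns, 2 between genes, 1 in an exon and 1 in the promoter of a noncoding gene. Their median distance to the nearest TSS was 11813.5 bp, close to the 11145 bp of all lost regions. A shared region lay 271 to 7278 bp away (median 3107 bp, against 6138.5 bp over all lost regions).

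**Figure D2:**
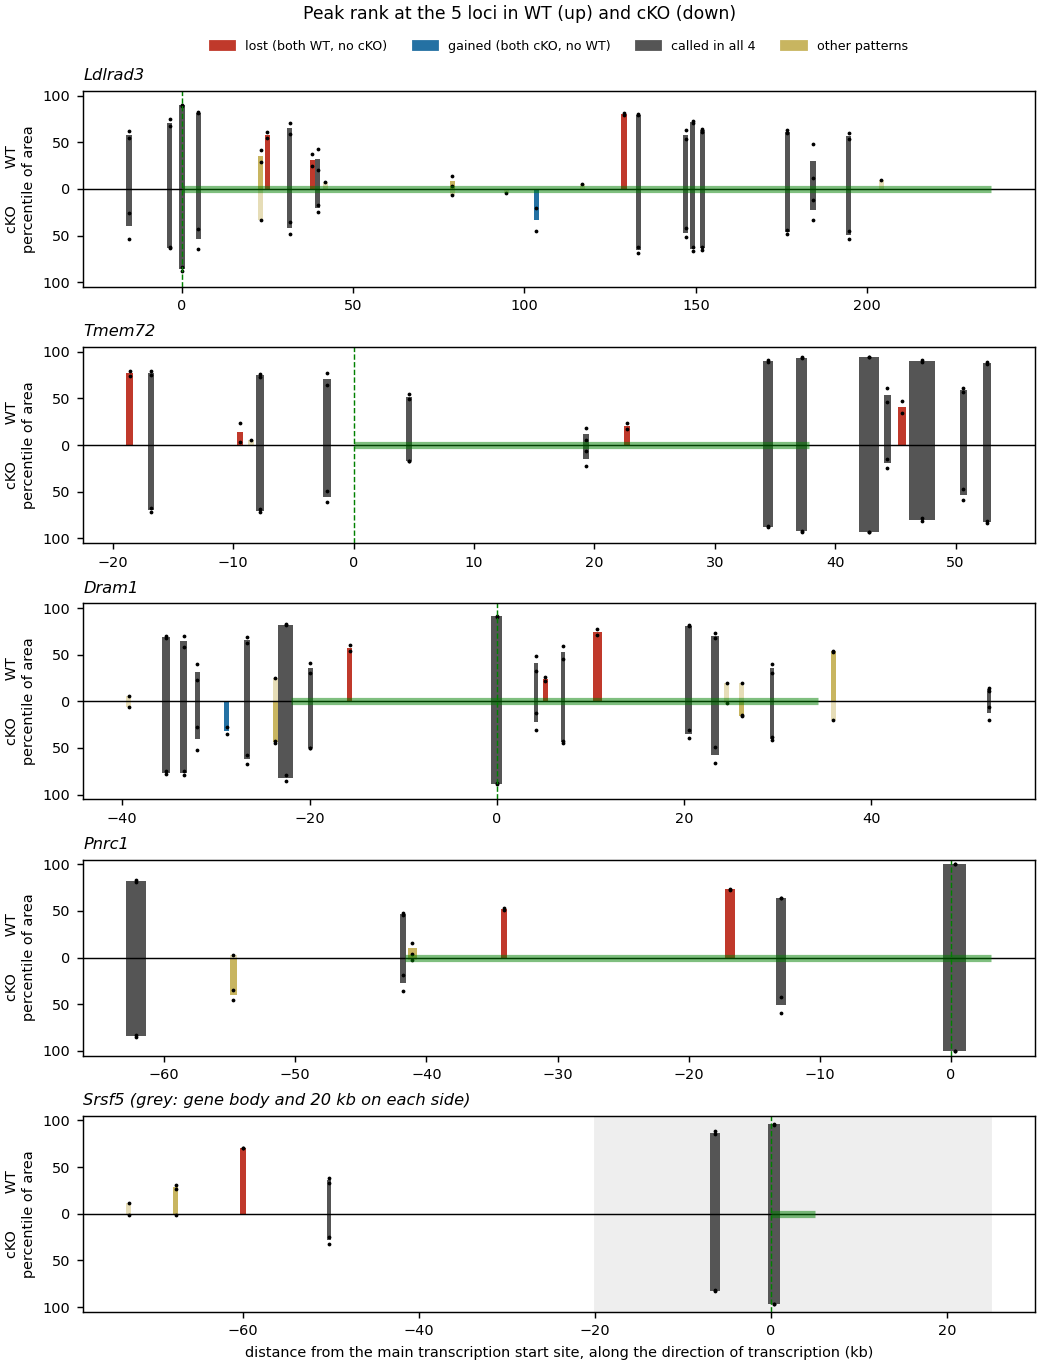
Regions at the 5 loci by distance from the main TSS along the direction of transcription (kb, horizontal axis), with the mean percentile of peak area over the libraries that called the region drawn upwards for WT and downwards for cKO, and each library as a dot. Green bars are gene bodies, dashed lines TSSs, narrow regions are drawn at a minimum width, and paler bars rest on 1 library. Red bars, the lost regions, stand among or beside dark grey shared regions at Ldlrad3, Tmem72, Dram1 and Pnrc1, and the red bar of the Srsf5 panel lies outside the light grey area that marks the gene body and 20 kb on each side.

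Ldlrad3 (ENSMUSG00000048058.17, chr2:101950203-102186385, reverse strand) is a long gene of 236.2 kb with 23 regions in its window, of which 13 were shared, 3 lost, 1 gained and 6 of other patterns. The window held 18 and 21 peaks in WT and 14 and 17 in cKO. The top lost region (chr2:102056949-102057715) lay in an intron, 129.1 kb downstream of the Ldlrad3 TSS. It also lay 255 bp upstream of the TSS of Gm13920, an antisense RNA on the forward strand, whose first exon it overlapped by 129 bp. Its class as a promoter thus came from Gm13920 and not from Ldlrad3.

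The gene's own promoter region (chr2:102185878-102186709) was shared and ranked high, at 89.2 and 90.03 in WT versus 84.1 and 87.6 in cKO. Both cKO values lay below both WT values, by a few percentiles. The shared region 3437 bp from the top lost one (chr2:102052969-102053511) had nearly the same WT rank as it, 78.8 and 80.0, yet was called in cKO at 62.5 and 68.4. These neighbouring sites of similar WT rank therefore differed in cKO, one being called and the other not.

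The further lost regions of Ldlrad3 were both intronic and nearer to the promoter. The one 25.0 kb downstream of the TSS (chr2:102161202-102161620) stood at 54.1 and 61.4, and was the 59th of the lost regions by area. The one 38.1 kb downstream (chr2:102148122-102148420) was weaker, at 24.4 and 37.9. Between the promoter and these sites, a shared region 4882 bp into the gene (chr2:102181169-102181837) was at 81.6 and 81.9 in WT versus 42.7 and 64.0 in cKO. It had the lowest cKO rank relative to WT of the 13 shared regions, a difference of mean percentiles of -28.4. In 9 of the 13, both cKO values lay below both WT values, and in none above, where over all 44820 shared regions 35.1% lay below and 22.2% above. The gained region (chr2:102082795-102083132) was at 20.98 and 45.4 in cKO.

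Tmem72 (ENSMUSG00000048108.13, chr6:116679063-116716913, reverse strand) had no region at its promoter in any library. Its window of 17 regions held 12 shared and 4 lost regions, 1 region called in WT replicate 2 alone, and no gained region. WT lists had 16 and 18 peaks there and cKO lists 12 each. The top lost region (chr6:116735273-116735785) was intergenic, 18.6 kb upstream of the TSS, and near the edge of the window. At 1308 bp from it, a shared region (chr6:116733529-116733964) stood at 74.9 and 79.8 in WT and at 67.8 and 72.2 in cKO. As at Ldlrad3, a lost and a shared site of like WT rank lay side by side, the latter again picked as the nearest shared region. At Dram1, Pnrc1 and Srsf5 the nearest shared region ranked below the lost one in WT.

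The other lost regions near Tmem72 were weaker. They stood at 34.0 and 47.2 in an intron of the neighbouring gene Rassf4, at 17.4 and 23.8 in an exon of Tmem72, and at 3.48 and 23.7 between genes, 9.41 kb upstream of Tmem72. Rassf4, which encodes a Ras association domain protein, lies downstream of Tmem72, and its promoter region was called at 94.5 and 94.6 in WT versus 93.0 and 92.8 in cKO. The shared regions of the window were strongest there and at the 3′ end of Tmem72. The largest difference was at an intronic region of Tmem72, 4.59 kb from its TSS (chr6:116712112-116712528), at 49.6 and 54.5 in WT versus 17.1 and 17.0 in cKO. An intronic region of Rassf4, 1.23 kb from its TSS and next to the lost region of that gene (chr6:116672287-116672866), was similar, at 45.9 and 61.2 in WT versus 24.0 and 15.0 in cKO. Both cKO values were below both WT values in 10 of the 12 shared regions and above them in none, against the same 35.1% and 22.2% over all shared regions.

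Dram1 (ENSMUSG00000020057.2, chr10:88322804-88379080, reverse strand) shares its upstream end with Gnptab, which encodes a subunit precursor of the phosphotransferase that tags lysosomal enzymes. Its window held 22 regions, of which 13 were shared, 3 lost, 1 gained and 5 of other patterns. The counts of peaks were 17 and 22 in WT versus 16 and 20 in cKO. The libraries numbered 1 differed by 1 peak and those numbered 2 by 2 peaks. The top lost region (chr10:88345860-88346794) was intronic, 10.7 kb downstream of the main TSS, and at 935 bp it was the widest of the 5.

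The Dram1 promoter region (chr10:88356550-88357646) was at 90.8 and 91.4 in WT versus 87.7 and 88.8 in cKO. Further into the gene, 20483 bp from the TSS, a shared region (chr10:88336186-88336998) stood at 80.5 and 81.8 in WT but at 30.9 and 39.5 in cKO. This difference of -46.0 in mean percentile was the largest among all 44 shared regions of the windows. In WT it outranked the lost region of the gene, so that the strongest intronic site of Dram1 was a shared one with a much lower cKO rank.

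The remaining lost regions of Dram1 were intronic as well. One was at 60.2 and 53.6 (chr10:88372509-88373033), in the part of the gene upstream of the main TSS that only a longer annotated transcript covers, and 6.46 kb before the Gnptab TSS. The other was at 21.6 and 26.1 (chr10:88351749-88352012). In 5 of the 13 shared regions (38.5%) both cKO values were below both WT values and in 3 (23.1%) above, close to the 35.1% and 22.2% of all shared regions. Those 3 lay within Gnptab or 2.23 kb upstream of it, among them an intronic region (chr10:88390122-88390876) at 58.4 and 69.9 in WT versus 75.2 and 78.8 in cKO. The gained region (chr10:88385779-88386047) lay among them, at 28.04 and 35.4 in cKO. The shared region at the promoter of Gnptab itself was at 81.8 and 82.8 in WT versus 79.5 and 85.3 in cKO, with overlapping values.

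Pnrc1 (ENSMUSG00000040128.9, chr4:33245423-33290163, reverse strand) had 8 regions, of which 4 were shared, 2 lost and 2 of other patterns. Its promoter region (chr4:33247328-33249133) was among the strongest peaks of every library, at 99.9 and 99.8 in WT versus 99.8 and 99.8 in cKO. The top lost region (chr4:33264960-33265716) lay 16.8 kb upstream of this promoter. It counts as intronic only because a noncoding transcript of Pnrc1 starts far upstream, while the coding transcript does not reach it.

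A shared region 3136 bp away (chr4:33261087-33261823), on the side of the promoter, was at 64.2 and 63.9 in WT versus 41.9 and 59.4 in cKO. The second lost region (chr4:33282362-33282793), also covered by that transcript alone, was at 53.6 and 51.2. Of the 4 shared regions, 3 had both cKO values below both WT values (35.1% over all shared regions), 1 of them the promoter region with a difference of only -0.083. The exception was the region at the TSS of Rngtt, the mRNA capping enzyme gene, at 81.0 and 82.8 in WT versus 85.1 and 83.4 in cKO. A weak region nearby (chr4:33303089-33303393) was called in 3 libraries, at 2.99 in WT replicate 2 and at 34.8 and 45.5 in cKO.

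Srsf5 (ENSMUSG00000021134.17, chr12:80945504-80950507, forward strand) differed from the other 4 genes, as its window held no lost region. There were 2 regions in it, and both were shared. The promoter region (chr12:80945116-80946543) was at 95.3 and 96.2 in WT versus 96.8 and 97.0 in cKO, so that both cKO values lay slightly above both WT values. The other region (chr12:80938584-80939729) was at 84.99 and 88.6 in WT versus 82.1 and 83.0 in cKO.

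The lost region that named the gene (chr12:80885153-80885867) lay 60.0 kb upstream of the Srsf5 TSS. It overlapped the last 319 bp of Gm26545, a lincRNA on the reverse strand, and lay 4.32 kb past the 3′ end of Susd6, a protein-coding gene on the forward strand with a sushi domain protein as product. The nearest shared region (chr12:80895123-80895515), 9255 bp away towards Srsf5, was weaker in all libraries, at 33.1 and 38.6 in WT versus 24.5 and 32.7 in cKO. The promoter region of Susd6 was at 85.3 and 86.9 in WT versus 87.3 and 89.6 in cKO. Nearness of a TSS is thus the only tie between this site and Srsf5, and no readout used here links any of the 5 regions to a target gene.

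Beyond the lost regions, the shared regions of the windows were compared by rank. In 28 of 44 (63.6%) both cKO percentiles were below both WT percentiles, and in 5 (11.4%) they were above. The shares over all shared regions were 35.1% and 22.2%. The median difference in mean percentile, cKO minus WT, was -6.53 in the windows and -1.10 over all shared regions (SD 12.7 over regions). By gene the medians were -10.8 at Ldlrad3, -5.73 at Tmem72, -0.48 at Dram1, -6.75 at Pnrc1 and -1.55 at Srsf5, over 13, 12, 13, 4 and 2 regions. Leaving out WT replicate 2 or cKO replicate 1 brought the median of the windows to -3.30 and -3.58, with 0.29 and 0.07 over all shared regions. Without WT replicate 1 or cKO replicate 2 it was -6.59 and -8.91, with -2.80 and -3.19 over all shared regions. The 5 loci were picked on the same contrast, so these values describe them and carry no test. With 2 libraries against 2, an exact permutation test could not give a p below 0.3333 for any single region.

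**Figure D3:**
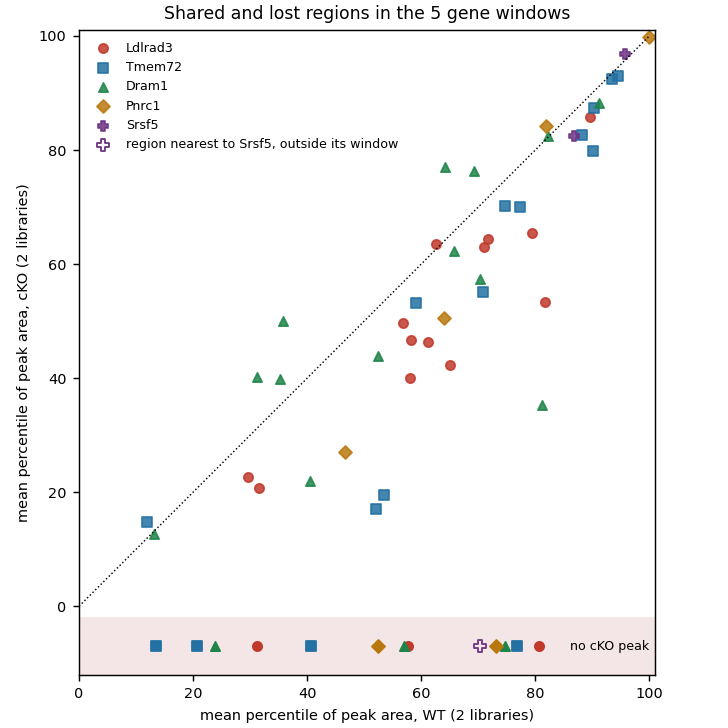
Mean percentile of peak area in the 2 WT libraries (horizontal axis) against that in the 2 cKO libraries (vertical axis) for the 44 shared regions of the 5 windows, by gene, with the lost regions in the shaded band below 0, where no cKO value exists. Most shared regions lie below the dotted line of equal rank, the farthest being the Dram1 region with a difference of -46.0, whereas promoters near 90 to 100 lie close to the line.

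To see how far this reached, all regions around each top lost region were counted, leaving out that region itself. Within 50 kb on both sides, the lost share was 0 of 8 regions at Ldlrad3, 2 of 10 at Tmem72, 2 of 20 at Dram1, 1 of 7 at Pnrc1 and 1 of 9 at the region nearest to Srsf5. Within 500 kb it was 3 of 59 (5.08%), 6 of 48 (12.5%), 3 of 59 (5.08%), 2 of 38 (5.26%) and 2 of 33 (6.06%) in the same order. At this scale 4 of the 5 shares were below the 7.25% of all regions, and that at Tmem72 was above it. The median difference of shared regions within 500 kb ranged from -3.20 (Srsf5) to 0.93 (Pnrc1).

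Genes of the same families were examined in the same way, with 18 genes from the LDLRAD, DRAM and TMEM150, PNRC and SR protein families. Their windows held 100 distinct regions, of which 7 (7.0%) were lost, close to the 7.25% of all regions. These lay at 5 genes, with 3 at Ldlrad4 and 1 each at Srsf1, Srsf3, Srsf4 and Srsf9. None was strong: the highest was an intronic site of Ldlrad4 at 33.5 and 26.05, and those of the SR protein genes ranged from 3.34 to 29.4. Most lost regions were weak, with a median of 19.8 over all of them. The 5 genes were chosen for the strongest ones, so this contrast follows from the choice. The windows of Dram2 and Pnrc2, with 6 and 5 regions, held none, and are too small to compare with that share. Of the 18 genes, 13 had a shared region at a promoter, a count given without the share over all genes. At Ldlrad4 the strongest such region was at a mean percentile of 92.7 in WT and 74.7 in cKO. At Srsf2 it was at 97.7 in both and at Srsf6 at 98.6 and 98.2. Srsf12 lies next to Pnrc1, so its window shares the Pnrc1 promoter region.

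**Figure D4:**
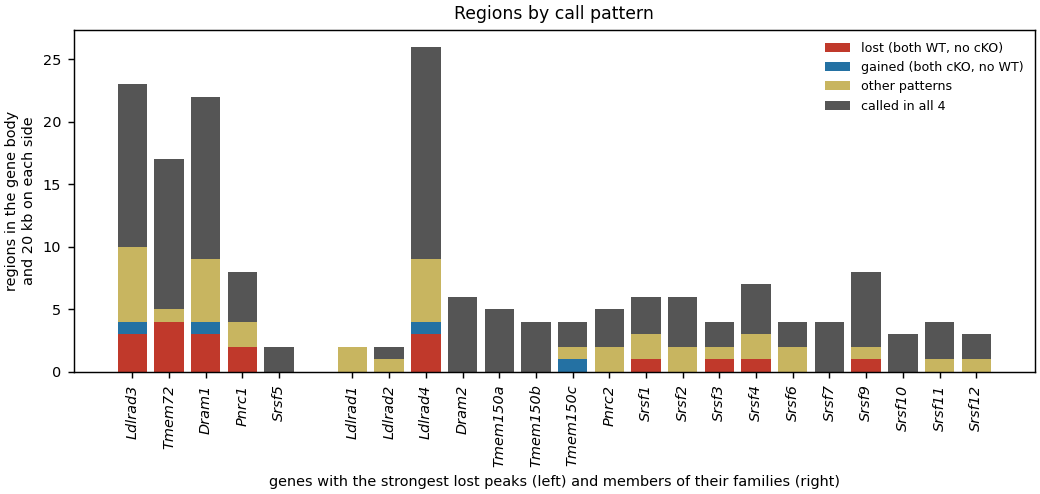
Number of regions (vertical axis) by call pattern in the gene body and 20 kb on each side, for the 5 genes (left) and 18 genes of their families (right). Lost regions, in red, number 3, 4, 3, 2 and 0 at Ldlrad3, Tmem72, Dram1, Pnrc1 and Srsf5, and among the other genes only Ldlrad4 has more than 1.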

How the data were processed

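ATAC-seq peaks of 2 WT and 2 cKO BMDM libraries were analysed, grouped by sample title. The authors aligned paired reads to mm10 with Bowtie2 2.5.1 and called peaks per library with Genrich at default settings. Read filters, duplicate removal and a shift of read ends were not given in the sources used here. The deposited signal column is Genrich's area under the significance curve, which depends on depth and was used only as a percentile within its list. The deposited −log10 p-value at the summit served as an alternative rank. Peaks were merged with pandas 2.3.3 and numpy 2.4.6, the merge was checked against bedtools, and the calls were tested on simulated data. The midpoint of a region, read against GENCODE M21, gave its location as promoter (from 1 kb before to 100 bp after a TSS), exon, intron or intergenic. Sequences were read with pysam 0.24.0 from the RefSeq assembly GRCm38.p6, whose chromosomes mm10 shares. Coordinates are 1-based. Members, families, markers and motifs were chosen with earlier results of these data known. Named genes are the 5 members, coding genes with a promoter region in a window or nearest to a top region, the families, the nearest genes of ranks 6 to 10 and the deleted genes. Individual shared and gained regions and Susd6 were chosen after their values were seen. No test was made. Figures were drawn with matplotlib 3.10.9.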

Additional observations from a re-analysis of the deposited data

How the results depend on the processing

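No value here comes from a test. Libraries of the same replicate number were also compared alone, although the labels do not pair them across genotypes. This gave 17 lost regions in the windows for number 1 (25.8% of the regions there, 15.7% over all regions). For number 2 it gave 17 (23.0% and 15.0%), against 12 with all libraries. The 5 top regions stayed lost under every alternative that changed the libraries, the peak threshold, the list length or the overlap. Leaving out libraries or weaker peaks could not have changed this, as each region had strong peaks in both WT lists and none in cKO. Those alternatives are therefore no check on the loss. Ranked by the summit p-value in place of the area, only 1 of the 5 top regions, that at Tmem72, was among the 5 highest. Those at Pnrc1, Dram1, Srsf5 and Ldlrad3 ranked 6th, 9th, 10th and 18th. The count of lost regions in the windows was 12 to 17 when single libraries were left out. That of all regions then went from 5164 to between 5449 and 10212. Under the other alternatives the windows held 11 to 15, out of different numbers of regions, so a similar count is not a similar share. The stricter threshold (peaks above each list's median area) gave 11 of 45 window regions, with 2501 lost over all regions. Equal list lengths gave 11 of 65, with 4485 lost over all regions. With peaks required to cover at least 50% of a region it was 15 of 72, with 5949. With 10 kb on each side it was 11 of 61, and with 50 kb 12 of 90. Shared regions numbered 21 in place of 44 with the stricter threshold, as fewer peaks entered. The median difference of shared regions in the windows was -8.91 to -3.30 when single libraries were left out. The values nearest to 0 came without WT replicate 2 (-3.30) and without cKO replicate 1 (-3.58), where the median of all shared regions was 0.29 and 0.07. Without cKO replicate 2 the median of the windows was -8.91 and without WT replicate 1 -6.59, beside -3.19 and -2.80 over all shared regions. It was -5.97 with the stricter threshold, -4.63 with equal list lengths (0.09 over all shared regions), -7.22 with 10 kb and -4.55 with 50 kb on each side, -5.20 by the summit p-value, and -5.05 and -5.21 within replicate numbers 1 and 2. The cause of these shifts was not tested. Depth limits the lists, as a site below the caller's limit is not in them.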
